A study of Homo sapiens with 60 samples.

Results

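The epithelial sodium channel, the water and glycerol channel AQP3 and the SGK kinases were followed in 3 human breast cell lines given doxorubicin, rapamycin or both. The genes are the 8 listed by symbol, SCNN1A, SCNN1B, SCNN1G, AQP3, SGK1, SGK3, NEDD4L and ATP1B1, and every probe set carrying one of them was taken from Affymetrix U133 Plus version 2 arrays. These were 21 probe sets of 54675, and 18 of these carried a single symbol. Those 18 gave values for 7 of the 8 genes, against 19775 genes with a value on the array. SGK3 had none, since its 3 probe sets also carry the symbol of a readthrough transcript. SCNN1G was chosen by its measured values in HB4a with doxorubicin and with both drugs, so each SCNN1G difference that rests on HB4a arrays is described without a test, and which values helped to list the other genes is not recorded.

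SKBR3 is a HER-2-overexpressing line from a mammary adenocarcinoma, C5.2 was derived from HB4a by transfer of a HER-2 cDNA, and HB4a comes from normal breast epithelium. Each line received doxorubicin at 30 nM, rapamycin at 20 nM, both drugs at those doses, or the DMSO vehicle, and no treatment time is given in the labels. Every group held 5 arrays, numbered by experiment 1, 2, 3, 4 and 6, and per-array values below follow that order. The medium of C5.2 and HB4a contained hydrocortisone and insulin, that of SKBR3 did not, and SKBR3 was seeded more densely, so line, medium and density cannot be told apart. C5.2 is a single derivative of HB4a, so effects of HER-2 and of that derivative cannot be told apart either.

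The channel, known as ENaC, is built from the alpha, beta and gamma subunits encoded by SCNN1A, SCNN1B and SCNN1G, and it lets sodium enter epithelial cells through the apical membrane. The sodium pump, of which ATP1B1 encodes a beta subunit, then moves sodium out across the basolateral side. NEDD4L is a ubiquitin ligase that removes the channel from the membrane, and SGK1 is a kinase that phosphorylates NEDD4L and weakens that removal. SGK1 transcription is known to be induced by glucocorticoids, and the SGK1 protein is activated through mTORC2 and PDPK1. Rapamycin inhibits mTORC1, and doxorubicin damages DNA by holding topoisomerase II in its cleaved complex. AQP3, which passes water and glycerol, is expressed in many epithelia.

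Values are log2 RMA summaries of the brightest probe set of each gene, and each difference, also in log2 units, is given ± its limma standard error (n = 5 arrays in every group). A gene was tested where it passed a log2 value of 5 on at least 5 arrays of a fit, and "rose", "fell", "higher" and "lower" with an adjusted p refer to results that passed a 2-sided threshold of 0.05 after Benjamini-Hochberg adjustment across every gene in the fit. Array medians lay between 1.41 and 1.71 and were taken as background. A value above them does not by itself show a transcript. Where at least 2 arrays of a group lay at or under their medians, the difference is given as a lower bound. The marker keratins KRT7, KRT8, KRT18 and KRT19 had 5.60 as their lowest value on any array, and the leukocyte genes PTPRC and LYZ lay under the median on all 60. EPCAM, another epithelial marker, read as low as 4.58 in C5.2 with both drugs. The basal genes KRT5 and ITGB4 averaged 1.79 and 3.44 in SKBR3, 7.01 and 3.13 in C5.2, and 10.07 and 5.33 in HB4a with vehicle. KRT14, also basal, lay under the median on every array. The endothelial genes PECAM1, CDH5, VWF and TEK had group means up to 3.58, that of CDH5 in SKBR3 with both drugs. CD3E, a T cell gene, lay above the median on all 20 arrays of each line, with group means from 2.03 to 2.53. CD14, a monocyte gene, lay above it on 0 of 20 SKBR3, 20 of 20 C5.2 and 19 of 20 HB4a arrays, with group means of 0.64 to 0.76, 4.35 to 4.65 and 2.03 to 2.97 in that order, and the part of these genes in the results was not tested. CDH1 was under the median on 19 of 20 SKBR3 arrays and reached 5.06 on vehicle array 3, which also stood apart in SGK1 and NEDD4L below. The arrays set aside below as those that stood apart, chosen after the data were seen, were all SKBR3 and HB4a arrays of experiment 1, all C5.2 arrays of experiment 2, SKBR3 vehicle 3 and HB4a rapamycin 4. Some were outlying in listed genes themselves, as C5.2 array 2 with rapamycin and with both drugs was in SGK1. A call gained without them is therefore not separate support. HER-2 transcript, ERBB2, averaged 11.48 ± 0.35 in SKBR3, 12.06 ± 0.25 in C5.2 and 6.67 ± 0.23 in HB4a with vehicle (SD, n = 5 each).

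Without drug, the 3 lines differed in most of the listed genes. SKBR3 had far more AQP3 and more ATP1B1 RNA than the other lines, less SCNN1A and NEDD4L, and SCNN1G and SGK1 at background. C5.2 had more SGK1 and less AQP3 and NEDD4L than HB4a. Of the 16 tested results 14 were called, 5 higher and 9 lower in the line named first, against 68.7% of all genes tested over the same comparisons. By pair, SKBR3 differed from C5.2 in 6 of 6 tested genes (78.8% of all genes called) and from HB4a in 5 of 5 (77.3%), and C5.2 differed from HB4a in 3 of 5 (49.2%). SGK1, SCNN1G and NEDD4L were under the filter in SKBR3, and AQP3 was under it in C5.2. They entered the comparisons of that line only through the other line, where they were higher, and genes low in both lines were not tested. The filter therefore partly set these counts and shares. With no filter the 14 calls were unchanged. In these cultures, fewer cells with an RNA and less RNA per cell cannot be told apart.

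**Figure D1:**
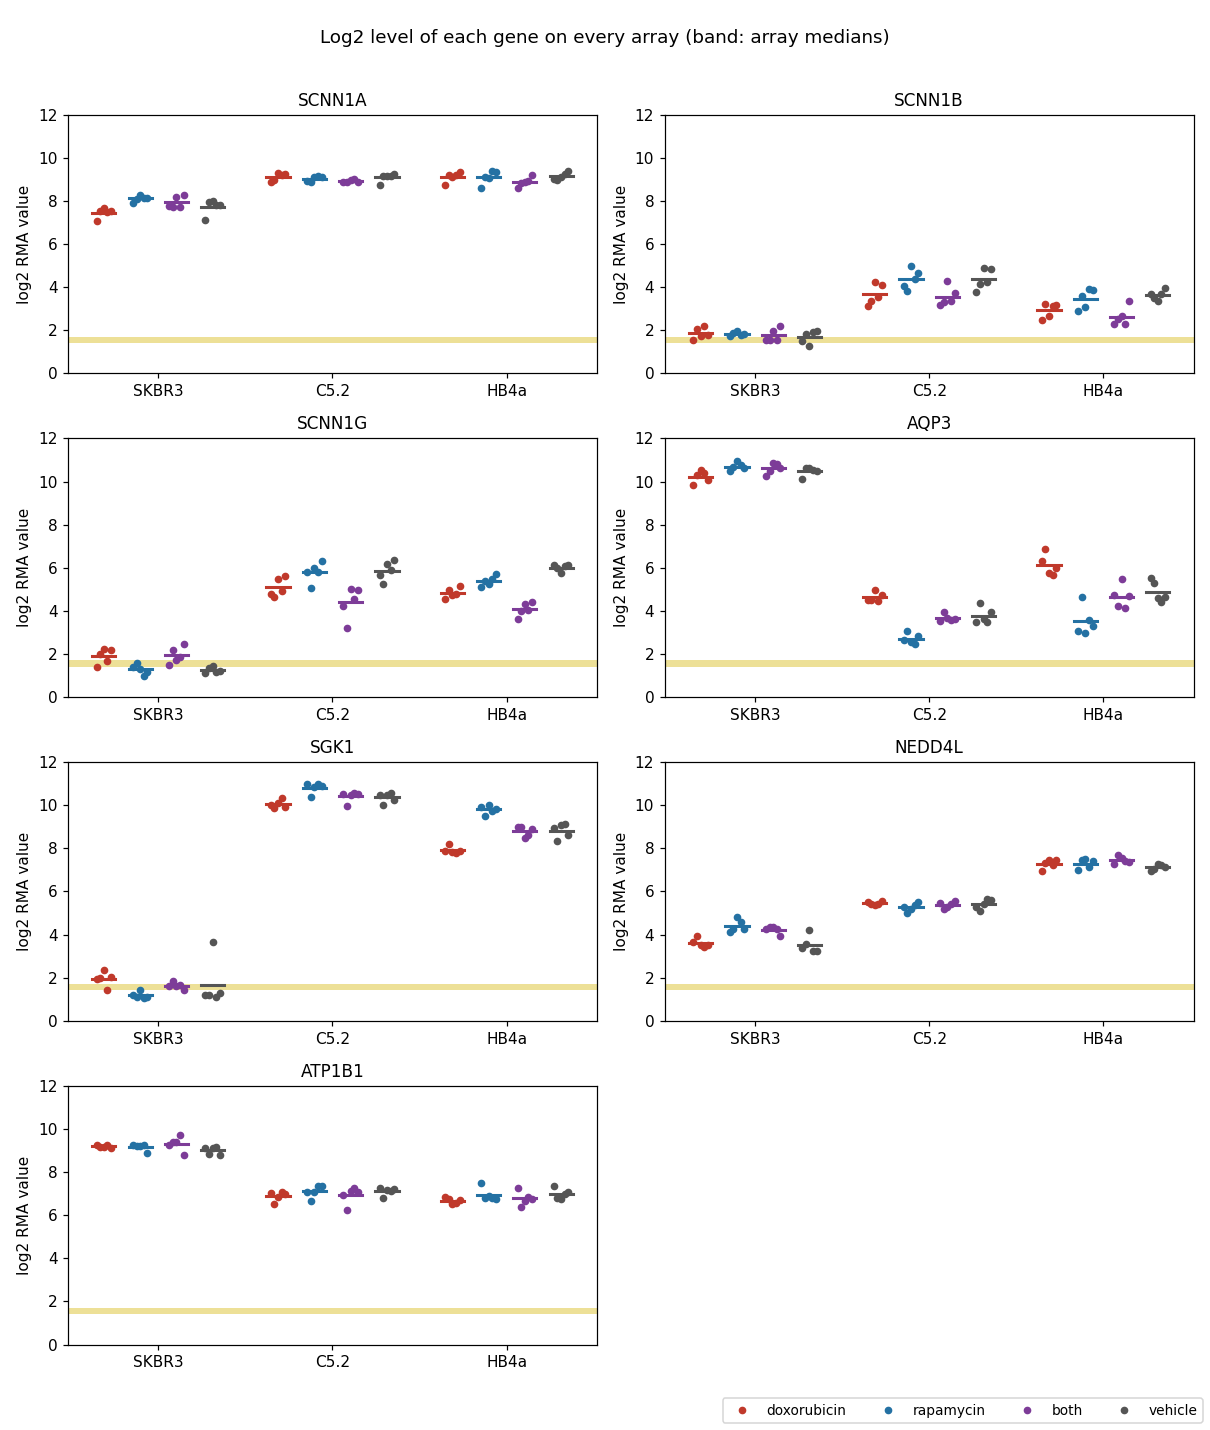
Log2 RMA value of 7 genes (vertical axis) on every array of SKBR3, C5.2 and HB4a (horizontal axis), with colours for doxorubicin, rapamycin, both drugs and vehicle from left to right within a line. Points are arrays, short lines are group means (n = 5), and the band spans the array medians, 1.41 to 1.71. AQP3 and ATP1B1 are highest in SKBR3, whereas SCNN1G and SGK1 in SKBR3 lie below, in or moderately above the band, except SGK1 on vehicle array 3 at 3.66.

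The 3 channel subunits were present to different degrees. SCNN1A read 7.12, 7.94, 7.99, 7.81 and 7.81 in SKBR3, 8.75, 9.16, 9.17, 9.16 and 9.24 in C5.2, and 9.03, 8.98, 9.10, 9.26 and 9.40 in HB4a with vehicle. All SKBR3 arrays were lower than all arrays of the other lines, which overlapped each other. SKBR3 was lower than C5.2 by 1.36 ± 0.13 (difference -1.36, adjusted p = 6.23e-12) and lower than HB4a by 1.42 ± 0.15 (difference -1.42, adjusted p = 9.08e-11). C5.2 minus HB4a was -0.06 ± 0.12 (adjusted p = 0.718), and with the mean of all probe sets it was called (-0.24, adjusted p = 0.0445). The other 2 SCNN1A probe sets stayed between 2.27 and 4.06 on all 60 arrays, and on them the SKBR3 minus HB4a differences were -0.46 and -0.39 and the C5.2 minus HB4a differences -0.24 and -0.43 (adjusted p = 0.145 and 0.0123 with no filter).

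SCNN1G read 1.11, 1.35, 1.46, 1.19 and 1.23 in SKBR3, 5.65, 5.23, 6.16, 5.91 and 6.38 in C5.2, and 6.11, 6.0, 5.75, 6.07 and 6.12 in HB4a with vehicle. All 5 SKBR3 arrays were at or under their medians, and the other lines overlapped. The gamma subunit RNA was therefore lower in SKBR3 by at least 4.37 against C5.2 (adjusted p = 1.44e-18) and by at least 4.51 against HB4a, without a test. C5.2 minus HB4a was -0.14 ± 0.25. A second SCNN1G probe set lay at or under the median on all 60 arrays.

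SCNN1B, the beta subunit, passed log2 5 on none of the 60 arrays, its highest value being 4.99, so it entered no filtered fit. It read 1.5, 1.84, 1.28, 1.92 and 1.95 in SKBR3, 3.77, 4.17, 4.89, 4.26 and 4.82 in C5.2, and 3.69, 3.50, 3.37, 3.66 and 3.95 in HB4a with vehicle. SKBR3 lay near background and below both other lines, and C5.2 overlapped HB4a. With no filter on low values, SCNN1B was lower in SKBR3 than in C5.2 (-2.68 ± 0.22, adjusted p = 1.03e-13) and HB4a (-1.94 ± 0.20, adjusted p = 2.5e-11), where 59.3% and 62.1% of all genes were called. C5.2 was higher than HB4a by 0.75 ± 0.25 (adjusted p = 0.0167), where 40.3% were called.

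AQP3 had the largest positive SKBR3 difference among the listed genes. It read 10.13, 10.61, 10.63, 10.55 and 10.48 in SKBR3, 3.46, 4.35, 3.64, 3.49 and 3.96 in C5.2, and 5.52, 5.31, 4.59, 4.4 and 4.63 in HB4a with vehicle. The 3 lines did not overlap. SKBR3 exceeded C5.2 by 6.70 ± 0.15 (adjusted p = 1.09e-31) and HB4a by 5.59 ± 0.25 (adjusted p = 9.03e-22), and C5.2 was below HB4a (-1.11 ± 0.26, adjusted p = 0.000576). The other 2 AQP3 probe sets gave the same order, with SKBR3 minus HB4a at 3.81 and 3.19 and C5.2 minus HB4a at -0.53 and -0.39.

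SGK1 had the opposite line pattern. It read 1.20, 1.20, 3.66, 1.09 and 1.27 in SKBR3, 10.49, 10.03, 10.49, 10.59 and 10.24 in C5.2, and 8.96, 8.36, 9.08, 9.12 and 8.61 in HB4a with vehicle. On 4 SKBR3 arrays SGK1 was under the array median, on vehicle array 3 it was not, and the lines did not overlap. SKBR3 was lower by at least 8.43 against C5.2 (adjusted p = 4.04e-27) and by at least 6.89 against HB4a (adjusted p = 2.98e-24). Without SKBR3 vehicle array 3 the measured differences were -9.18 and -7.63, against -8.68 and -7.14 with it. C5.2 exceeded HB4a by 1.54 ± 0.14 (adjusted p = 8.19e-12). SGK1 has a single probe set here.

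NEDD4L, the ligase that SGK1 phosphorylates, averaged 3.52 ± 0.40 in SKBR3, 5.40 ± 0.23 in C5.2 and 7.13 ± 0.13 in HB4a with vehicle (SD, n = 5 each), and the 3 groups did not overlap. The differences were -1.88 ± 0.15 for SKBR3 minus C5.2 (adjusted p = 2.63e-14), -3.61 ± 0.15 for SKBR3 minus HB4a (adjusted p = 9.84e-23) and -1.73 ± 0.12 for C5.2 minus HB4a (adjusted p = 3.57e-15). SKBR3 vehicle array 3 read 4.19 against 3.22 to 3.55 on the other SKBR3 vehicle arrays. NEDD4L's other probe sets disagreed in part. With no filter, SKBR3 minus HB4a was -2.49 and -0.91 on 2 of the 5 others (adjusted p = 1.27e-17 and 7.51e-05) and 0.49 on another (adjusted p = 0.00148). The remaining 2 were at background in SKBR3 with vehicle, and 1 of those lay under the median on all 60 arrays.

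ATP1B1 averaged 9.0 ± 0.17 in SKBR3, 7.11 ± 0.18 in C5.2 and 6.99 ± 0.24 in HB4a with vehicle (SD, n = 5 each). SKBR3 lay above both other lines without overlap, by 1.89 ± 0.15 over C5.2 (adjusted p = 5.95e-14) and 2.01 ± 0.15 over HB4a (adjusted p = 2.47e-15). C5.2 minus HB4a was 0.12 ± 0.17 (adjusted p = 0.58), and it was called without the arrays that stood apart (0.29, adjusted p = 0.0145). The second ATP1B1 probe set gave 2.34 and 2.47 for SKBR3 against C5.2 and HB4a. The probe set with the highest values among the 3 shared by SGK3 and the readthrough averaged 2.99 ± 0.37 in SKBR3, 1.98 ± 0.26 in C5.2 and 0.89 ± 0.18 in HB4a with vehicle, and all HB4a vehicle arrays were under their medians. These values cannot be assigned to SGK3.

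In HB4a, doxorubicin and rapamycin moved SGK1 and AQP3 in opposite directions. With doxorubicin SGK1 fell and AQP3 rose, with rapamycin SGK1 rose and AQP3 fell, and with both drugs neither was called against vehicle. The 2 genes' starts are shown because they carry this contrast: the 250 bases upstream of the AQP3 start (chr9:33447594-33447843, minus strand) and of the most downstream of 3 SGK1 starts (chr6:134174867-134175116, minus strand), from RefSeq on GRCh38.p14, 5′ to 3′, with capitals marking motif matches on either strand.
AQP3: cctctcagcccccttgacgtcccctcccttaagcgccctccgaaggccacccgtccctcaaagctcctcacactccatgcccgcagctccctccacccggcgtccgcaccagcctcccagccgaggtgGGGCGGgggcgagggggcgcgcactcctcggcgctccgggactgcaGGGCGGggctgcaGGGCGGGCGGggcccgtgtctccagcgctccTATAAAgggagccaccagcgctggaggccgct
SGK1: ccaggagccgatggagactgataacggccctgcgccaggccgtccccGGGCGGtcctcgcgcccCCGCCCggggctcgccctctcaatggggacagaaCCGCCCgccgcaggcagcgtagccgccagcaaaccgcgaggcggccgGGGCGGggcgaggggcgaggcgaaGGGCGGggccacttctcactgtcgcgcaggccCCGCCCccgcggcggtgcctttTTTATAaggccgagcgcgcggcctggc
The motifs searched were GGGCGG (a GC box, in 42.6% of the 35116 windows upstream of all starts in the table), TATAAA (the core TATA motif, 10.7%), GTAAACA (a FOXO core, 2.98%) and AGAACA (a glucocorticoid receptor motif, 12.4%). AQP3 had 4 GC boxes, 2 of them overlapping, and 1 TATA motif on its own strand. SGK1 had 6 GC boxes and 1 TATA match on the opposite strand. Neither window held the other 2 motifs, which says only that those letters are not in these bases.

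SGK1 in HB4a read 7.87, 8.18, 7.83, 7.80 and 7.86 with doxorubicin and 9.92, 9.51, 10.01, 9.75 and 9.85 with rapamycin. It read 9.01, 9.0, 8.48, 8.64 and 8.89 with both drugs and 8.96, 8.36, 9.08, 9.12 and 8.61 with vehicle. Every doxorubicin array lay below and every rapamycin array above all vehicle arrays, and the arrays with both drugs overlapped vehicle. SGK1 fell by 0.92 ± 0.14 with doxorubicin (difference -0.92, adjusted p = 0.00017) and rose by 0.98 ± 0.14 with rapamycin (adjusted p = 0.000228). Both drugs minus vehicle was -0.02 ± 0.14 (adjusted p = 0.931). The direction and call of both single-drug changes held with each array left out in turn.

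AQP3 in HB4a read 6.33, 6.89, 5.77, 5.69 and 5.98 with doxorubicin and 3.07, 4.63, 2.99, 3.57 and 3.30 with rapamycin. It read 4.73, 4.23, 5.49, 4.12 and 4.69 with both drugs and 5.52, 5.31, 4.59, 4.4 and 4.63 with vehicle. Doxorubicin arrays lay above all vehicle arrays, whereas rapamycin array 2 overlapped vehicle and the other 4 lay below. AQP3 rose by 1.24 ± 0.32 with doxorubicin (adjusted p = 0.0131) and fell with rapamycin (-1.38 ± 0.32, adjusted p = 0.0158). Both drugs minus vehicle was -0.24 ± 0.32 (adjusted p = 0.67). Over log2 5 were all doxorubicin arrays, 5.52 and 5.31 with vehicle, 5.49 with both drugs and no rapamycin array. AQP3 thus passed the filter in HB4a only through the doxorubicin arrays, where it was highest, and without them it would not have been tested. With no filter its calls in HB4a were unchanged.

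The AQP3 changes rested on the brightest probe set. On the other 2, doxorubicin minus vehicle in HB4a was 0.09 and 0.03 and rapamycin minus vehicle was -0.34 and -0.35, and with no filter none of these was called. Those 2 probe sets averaged 3.23 and 3.51 in vehicle-treated HB4a. The rapamycin fall was not called without rapamycin array 3 (adjusted p = 0.0512), nor without the arrays that stood apart (-1.09, adjusted p = 0.16).

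**Figure D2:**
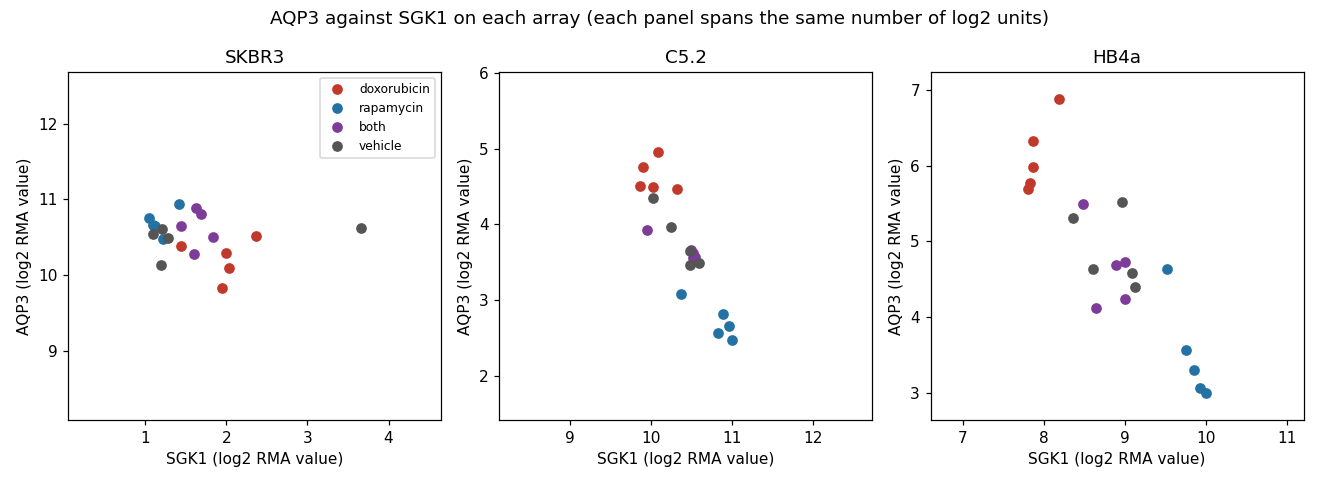
AQP3 (vertical axis, log2 RMA value) against SGK1 (horizontal axis, log2 RMA value) on each array of SKBR3, C5.2 and HB4a, coloured by treatment. In HB4a the 5 doxorubicin arrays lie at low SGK1 and high AQP3, 4 of 5 rapamycin arrays lie at high SGK1 and below all vehicle arrays in AQP3, and arrays with both drugs overlap the vehicle arrays.

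In C5.2 the single-drug differences of SGK1 and AQP3 had the same signs. SGK1 read 10.97, 10.37, 10.83, 10.995 and 10.89 with rapamycin and 10.49, 10.03, 10.49, 10.59 and 10.24 with vehicle. The groups overlapped through rapamycin array 2, and SGK1 rose by 0.44 ± 0.14 (adjusted p = 0.0276). That call was lost on leaving out vehicle array 2 or 6 or rapamycin array 1, 3, 4 or 6 (adjusted p up to 0.0955), with no filter (adjusted p = 0.0569) and with all 60 arrays in 1 fit (adjusted p = 0.227). Doxorubicin minus vehicle for SGK1 was -0.32 ± 0.14 (adjusted p = 0.252), and it was called when experiment number entered as a block (adjusted p = 0.00133) and without the arrays that stood apart (-0.37, adjusted p = 0.00808).

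AQP3 in C5.2 stayed under the filter. It read 4.49, 4.51, 4.95, 4.47 and 4.75 with doxorubicin, 2.66, 3.08, 2.57, 2.48 and 2.82 with rapamycin, and 3.46, 4.35, 3.64, 3.49 and 3.96 with vehicle. The 3 groups did not overlap. With no filter, AQP3 rose by 0.85 ± 0.16 with doxorubicin (adjusted p = 0.00626, 1.22% of all genes called) and fell with rapamycin (-1.06 ± 0.16, adjusted p = 0.000603, 4.31% called). Both drugs minus vehicle was -0.12 ± 0.16 (adjusted p = 0.841, 6.79% called). The other 2 AQP3 probe sets moved by 0.10 and -0.06 with doxorubicin and by 0.08 and -0.12 with rapamycin, and none of these was called.

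In SKBR3, SGK1 was at or under the median on 5 of 5 rapamycin and 4 of 5 vehicle arrays and read 1.44 to 2.36 with doxorubicin, so no response was read from it. AQP3 in SKBR3 averaged 10.22 ± 0.27 with doxorubicin, 10.70 ± 0.17 with rapamycin, 10.62 ± 0.24 with both drugs and 10.48 ± 0.20 with vehicle (SD, n = 5 each). The groups overlapped, and the differences from vehicle were -0.26 ± 0.13, 0.22 ± 0.13 and 0.14 ± 0.13 (adjusted p = 0.744, 0.26 and 0.432). Blocking on experiment number, all 3 were called (adjusted p = 0.00533, 0.00309 and 0.0345).

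Over the 3 lines, doxorubicin changed 2 of 13 tested results of listed genes, 1 up and 1 down, where 5.21% of all genes were called. Rapamycin changed 3 of 13, 2 up and 1 down, where 13% were called, and both drugs changed 1 of 13, down, where 20.1% were called. In HB4a doxorubicin changed 2 of 5 (11.4% of all genes called), rapamycin 2 of 5 (3.18%) and both drugs 0 of 5 (17.4%), with 1 of those 5 at an unadjusted p under 0.05 in limma. AQP3 is among these 5 only through its doxorubicin arrays, where it was high. In C5.2 the counts were 0 of 5 (3.26%, with 2 at an unadjusted p under 0.05), 1 of 5 (17.4%) and 1 of 5 (21%). In SKBR3 no tested gene was called, 0 of 3 each, where 0.837%, 18.3% and 22% of all genes were called, and 0, 1 and 1 had an unadjusted p under 0.05. These counts are from fits without a block for experiment, although experiment numbers paired the SKBR3 arrays. With the block, AQP3 was called in SKBR3 with each treatment, SCNN1A with rapamycin and ATP1B1 with both drugs. With doxorubicin it also called SGK1 and SCNN1G in C5.2 and ATP1B1 in HB4a. The share of all genes called with the block is not given.

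**Figure D3:**
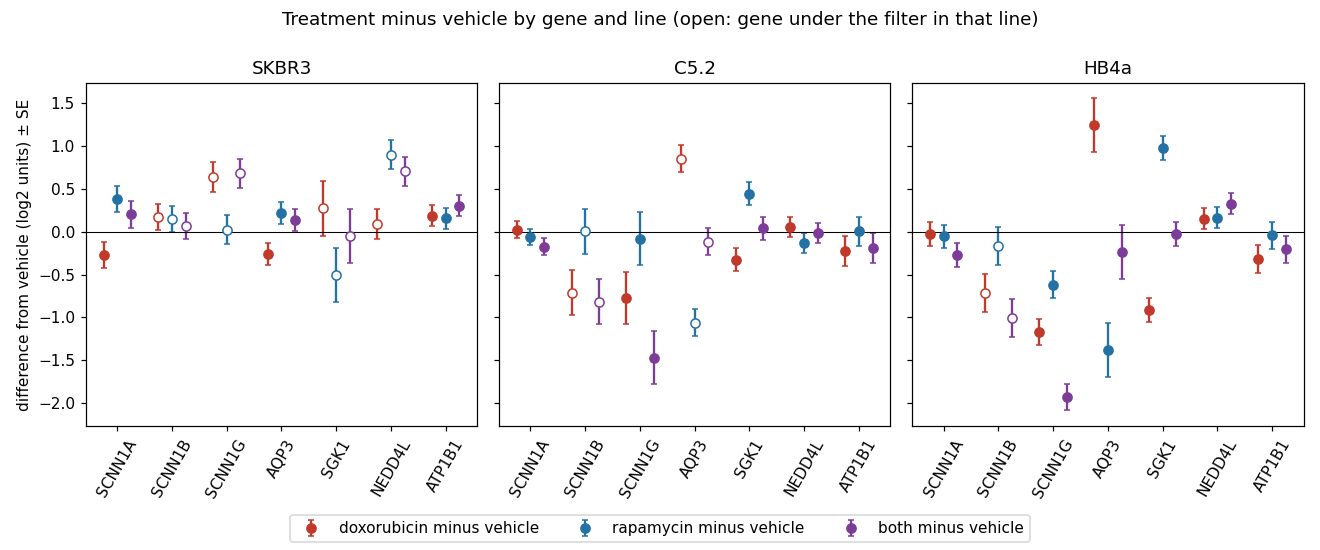
Difference from vehicle in log2 units (vertical axis, ± SE, n = 5 arrays per group) for 7 genes (horizontal axis) in SKBR3, C5.2 and HB4a, with doxorubicin, rapamycin and both drugs from left to right. Open points mark genes under the filter in that line. In HB4a, SGK1 lies at -0.92, 0.98 and -0.02 and AQP3 at 1.24, -1.38 and -0.24.

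SCNN1G had its lowest group means with both drugs in HB4a and C5.2. In HB4a it read 4.56, 4.96, 4.74, 4.78 and 5.14 with doxorubicin and 5.13, 5.38, 5.24, 5.48 and 5.72 with rapamycin. It read 3.63, 4.0, 4.30, 4.04 and 4.42 with both drugs and 6.11, 6.0, 5.75, 6.07 and 6.12 with vehicle. All treated arrays were below all vehicle arrays, and those with both drugs were below the rest. The differences from vehicle were -1.17 ± 0.16 with doxorubicin, -0.62 ± 0.16 with rapamycin and -1.93 ± 0.16 with both drugs. Both drugs minus doxorubicin alone was -0.76 ± 0.16 and minus rapamycin alone -1.31 ± 0.16. None of these has a test, since SCNN1G was listed for its low values on these arrays.

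In C5.2 SCNN1G read 4.79, 4.65, 5.46, 4.93 and 5.63 with doxorubicin and 5.81, 5.06, 5.97, 5.79 and 6.29 with rapamycin. It read 4.22, 3.20, 5.03, 4.56 and 4.96 with both drugs and 5.65, 5.23, 6.16, 5.91 and 6.38 with vehicle. The arrays with both drugs lay below all vehicle arrays, and the other treated arrays overlapped vehicle. The combination lowered SCNN1G (-1.47 ± 0.31, adjusted p = 0.00237). Doxorubicin minus vehicle was -0.77 ± 0.31 (adjusted p = 0.228, 0.000315 with a block for experiment and 0.0217 without the arrays that stood apart) and rapamycin minus vehicle was -0.08 ± 0.31 (adjusted p = 0.885).

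SCNN1B, under the filter in all lines, had differences of the same sign with doxorubicin and both drugs. With no filter it fell with both drugs in HB4a (-1.01 ± 0.22, adjusted p = 0.00576, 7.34% of all genes called). It read 2.27, 2.54, 2.69, 2.29 and 3.36 with both drugs and 3.69, 3.50, 3.37, 3.66 and 3.95 with vehicle, and the groups did not overlap. Doxorubicin minus vehicle was -0.71 ± 0.22 in HB4a (adjusted p = 0.0717) and -0.71 ± 0.26 in C5.2 (adjusted p = 0.278), and both drugs minus vehicle in C5.2 was -0.82 ± 0.26 (adjusted p = 0.066). Rapamycin minus vehicle was 0.01 ± 0.26 in C5.2 and -0.17 ± 0.22 in HB4a. In SKBR3 the beta subunit stayed between 1.28 and 2.21 on all 20 arrays, and SCNN1G between 1.0 and 2.46.

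**Figure D4:**
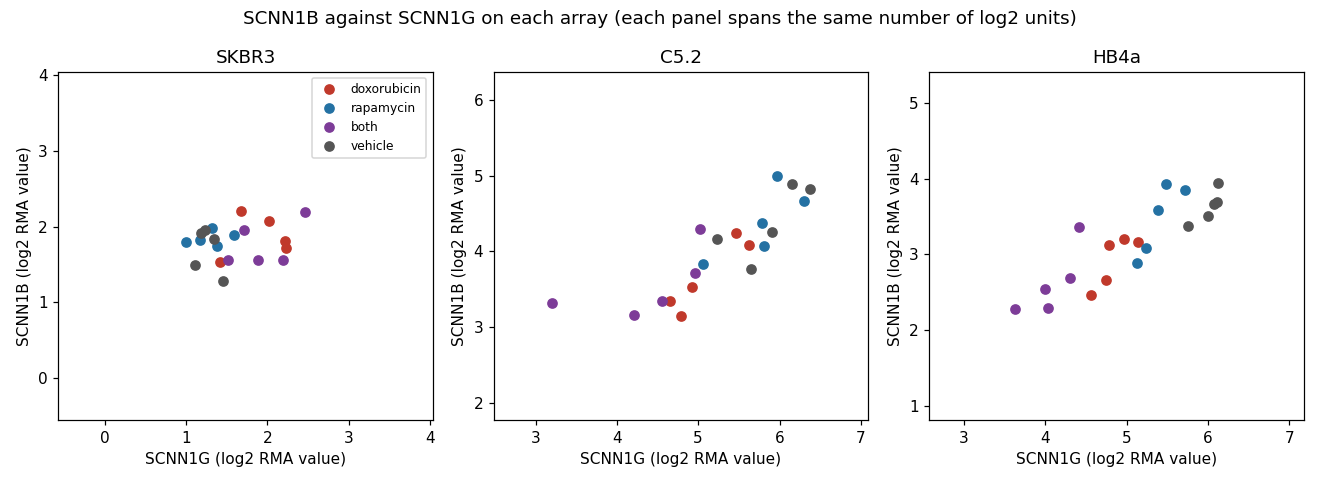
SCNN1B (vertical axis, log2 RMA value) against SCNN1G (horizontal axis, log2 RMA value) on each array of SKBR3, C5.2 and HB4a, coloured by treatment. The arrays with both drugs hold the 5 lowest SCNN1G values of HB4a. In SKBR3 the arrays lie below, within or moderately above the array medians, 1.41 to 1.71.

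SCNN1A, the alpha subunit, was not called in any treatment against vehicle in the fits used here. In HB4a it averaged 9.12 ± 0.22 with doxorubicin, 9.10 ± 0.31 with rapamycin, 8.89 ± 0.22 with both drugs and 9.15 ± 0.17 with vehicle (SD, n = 5 each), and the groups overlapped. In C5.2 the differences from vehicle lay between -0.17 and 0.03, and that with both drugs, -0.17 ± 0.10 (adjusted p = 0.231), was called without vehicle array 1 (adjusted p = 0.0402). In SKBR3 rapamycin minus vehicle was 0.38 ± 0.15 (adjusted p = 0.0902, 0.00297 with a block for experiment and 0.0483 with all 60 arrays in 1 fit), and doxorubicin minus vehicle was -0.27 ± 0.15 (adjusted p = 0.859).

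NEDD4L passed the filter in C5.2 and HB4a and was not called there with any treatment. Both drugs minus vehicle in HB4a was 0.33 ± 0.13 (adjusted p = 0.0763), and it was called without array 1 of both drugs (adjusted p = 0.0464) and without the arrays that stood apart (adjusted p = 0.0137). In SKBR3 it was under the filter and read 4.13, 4.26, 4.83, 4.60 and 4.27 with rapamycin, 4.28, 4.34, 4.33, 4.26 and 3.92 with both drugs and 3.38, 3.55, 4.19, 3.22 and 3.25 with vehicle. Vehicle array 3, which stood apart, overlapped both treated groups, and the other 4 vehicle arrays lay below them. With no filter NEDD4L rose by 0.90 ± 0.17 with rapamycin (adjusted p = 0.00165, 5.58% of all genes called) and by 0.71 ± 0.17 with both drugs (adjusted p = 0.0121, 7.17% called). Of its 5 other probe sets, 2 above background rose with rapamycin in SKBR3, by 0.50 and 1.0 (adjusted p = 0.0221 and 0.00271 with no filter).

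ATP1B1 was not called in any treatment against vehicle. Its differences lay between -0.32 and 0.31. Doxorubicin minus vehicle in HB4a (-0.32 ± 0.16, adjusted p = 0.225) and both drugs minus vehicle in SKBR3 (0.31 ± 0.12, adjusted p = 0.0766) were called with a block for experiment (adjusted p = 0.0185 and 0.00284). The SKBR3 difference was also called without array 6 of both drugs (adjusted p = 0.00668) and after quantile normalization (adjusted p = 0.0185).

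Adding the other drug was examined as both drugs against each single drug. Of 26 tested results, 7 were called, 4 up and 3 down, where 8.97% of all genes were called. In HB4a, against doxorubicin alone, both drugs left SGK1 higher (0.89 ± 0.14, adjusted p = 0.0008) and AQP3 lower (-1.48 ± 0.32, adjusted p = 0.0115), 2 of 5 genes where 2.58% of all genes were called. Against rapamycin alone, SGK1 was lower (-1.01 ± 0.14, adjusted p = 7.27e-05) and AQP3 higher (1.14 ± 0.32, adjusted p = 0.0266), 2 of 5 where 8.84% were called. AQP3 entered these HB4a tests only through its doxorubicin arrays, where it was high. The AQP3 difference from rapamycin alone was not called on leaving out rapamycin array 1, 3 or 6 or array 3 or 6 of both drugs (adjusted p up to 0.0851) or without the arrays that stood apart (adjusted p = 0.109).

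In C5.2 the combination left SCNN1G lower than rapamycin alone (-1.39 ± 0.31, adjusted p = 0.00739), 1 of 5 genes where 6.39% were called. Against doxorubicin alone 0 of 5 were called (13.5%), with 2 at an unadjusted p under 0.05 in limma, SGK1 at 0.36 ± 0.14 and SCNN1G at -0.70 ± 0.31 (adjusted p = 0.079 and 0.14). With a block for experiment, SCNN1G (adjusted p = 0.000286), SGK1 (0.000184) and SCNN1A (-0.20, 0.0188) were called against doxorubicin alone, and SGK1 (-0.41, 8.28e-05) against rapamycin alone. Both SGK1 differences were also called without the arrays that stood apart (adjusted p = 0.00263 and 0.00308). That from doxorubicin was called without doxorubicin array 4 or array 2 of both drugs (adjusted p from 0.014), and that from rapamycin without rapamycin array 2 (adjusted p = 0.0138). SCNN1G against doxorubicin alone was called with all 60 arrays in 1 fit (adjusted p = 0.044). AQP3, under the filter, was lower than with doxorubicin alone (-0.97 ± 0.16, adjusted p = 0.00176) and higher than with rapamycin alone (0.95 ± 0.16, adjusted p = 0.00136) with no filter, where 3.09% and 2.3% of all genes were called.

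In SKBR3 the combination exceeded doxorubicin alone in AQP3 (0.40 ± 0.13, adjusted p = 0.0303) and SCNN1A (0.48 ± 0.15, adjusted p = 0.0313), 2 of 3 genes where 22% were called. SCNN1A read 7.77, 7.74, 8.18, 7.72 and 8.27 with both drugs and 7.07, 7.54, 7.68, 7.49 and 7.52 with doxorubicin, without overlap. Both calls were lost with no filter (adjusted p = 0.0517 and 0.0569), and AQP3's with all 60 arrays in 1 fit (adjusted p = 0.229) and with the mean of all probe sets (0.24, adjusted p = 0.228). AQP3's was lost on leaving out doxorubicin array 1 or 6 or array 3, 4 or 6 of both drugs (adjusted p up to 0.096), and SCNN1A's on leaving out doxorubicin array 1 or 4 or array 3 or 6 of both drugs (adjusted p up to 0.0967). Against rapamycin alone 0 of 3 were called (0.552%), with 0 at an unadjusted p under 0.05. How far both drugs departed from adding the single-drug differences was called for 0 of 13 tested results in limma, with 0 at an unadjusted p under 0.05. For HB4a it was -0.09 ± 0.20 for SGK1 and -0.10 ± 0.45 for AQP3.

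Whether a response differed between lines was tested as a line by treatment term. Of 30 tested results 4 were called, all for SKBR3 minus HB4a, where 3.26% of all genes were called over the same comparisons. The AQP3 response to doxorubicin was lower in SKBR3 (-1.50 ± 0.36, adjusted p = 0.00781), 1 of 5 genes where 3.87% were called. To rapamycin, AQP3 (1.60 ± 0.36, adjusted p = 0.0033), NEDD4L (0.74 ± 0.22, adjusted p = 0.0356) and SGK1 (-1.49 ± 0.38, adjusted p = 0.013) differed, 3 of 5 genes where 5.03% were called. Apart from vehicle array 3, SGK1 was at background in SKBR3 with rapamycin and with vehicle, so its term holds the HB4a rise against values that measure no SGK1 response. Without SKBR3 vehicle array 3 that term was -0.99 (adjusted p = 0.00207).

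Some of these differences depended on arrays or probe sets. The AQP3 rapamycin term was not called without the arrays that stood apart (1.30, adjusted p = 0.108), and the AQP3 doxorubicin term was not called with the mean of all probe sets (-0.56, adjusted p = 0.155). NEDD4L's was not called on leaving out SKBR3 rapamycin 3 or 4, SKBR3 vehicle 1, 4 or 6, HB4a rapamycin 1 or 4, or HB4a vehicle 3, 4 or 6 (adjusted p up to 0.0937) or with no filter (adjusted p = 0.0666), and without SKBR3 vehicle array 3 it was 0.90 (adjusted p = 0.00227). The SGK1 doxorubicin term was 1.19 (adjusted p = 0.0728). It was called without SKBR3 vehicle array 3 (1.68, adjusted p = 1.98e-06) and without the arrays that stood apart (1.64, adjusted p = 0.000109). With a block for experiment and with all 60 arrays in 1 fit it was also called (adjusted p = 0.0127 and 0.0243). SGK1 was at background on 4 of 5 SKBR3 vehicle arrays, so the term holds the HB4a fall against no measured vehicle level in SKBR3. With a block for experiment within each line, the ATP1B1 doxorubicin term (0.50 ± 0.21, adjusted p = 0.208 without and 0.00534 with the block) and the SCNN1A rapamycin term (0.44 ± 0.21, 0.289 and 0.00898) were called.

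For both drugs 0 of 5 were called between SKBR3 and HB4a (9.82%), with 2 at an unadjusted p under 0.05 in limma. Of these, ATP1B1 (0.51, adjusted p = 0.114) was called without SKBR3 array 6 or HB4a array 1 of both drugs (adjusted p from 0.034), after quantile normalization (0.62, adjusted p = 0.0297) and without the arrays that stood apart (0.62, adjusted p = 0.0456). The C5.2 responses did not differ from those of HB4a at the threshold, with 0 of 15 called and 2 at an unadjusted p under 0.05, where 0.101%, 0% and 0.373% of all genes were called for doxorubicin, rapamycin and both drugs. For SGK1 the C5.2 minus HB4a terms were 0.59 ± 0.20 with doxorubicin (adjusted p = 0.679) and -0.54 ± 0.20 with rapamycin (adjusted p = 0.753).

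Other genes of channel control were compared over lines and treatments. Of 18 listed regulators of the channel, 16 had a value and 8 passed the filter in some fit. With vehicle, 0 were higher and 2 lower of 8 in C5.2 against HB4a (49.2% of all genes called). SKBR3 had 2 higher and 2 lower of 8 against HB4a (77.3% called), and 3 higher and 3 lower of 8 against C5.2 (78.8% called). PRSS8 was under the filter in C5.2 and STK39 in SKBR3, so each entered the comparisons of that line through the other line, where it was higher. Over all treatments against vehicle, 0 of 66 tested results were called in limma, with 11 at an unadjusted p under 0.05, where 5.21%, 13% and 20.1% of all genes were called with doxorubicin, rapamycin and both drugs. PRSS8 and ST14, serine proteases of the pathway that cleaves and activates the channel, were lower in C5.2 than in HB4a with vehicle, by 3.13 ± 0.19 (difference -3.13, adjusted p = 4.5e-17) and by 1.59 ± 0.20 (difference -1.59, adjusted p = 1.11e-08). ST14 was higher in SKBR3 than in HB4a (0.92 ± 0.17, adjusted p = 6.14e-06), and PRSS8 was not called there (0.06 ± 0.24, adjusted p = 0.833). STK39, a kinase of the WNK pathway, lay at or under the median on 3 of 5 SKBR3 vehicle arrays and averaged 1.49 ± 0.55 there, 5.55 ± 0.29 in C5.2 and 4.89 ± 0.28 in HB4a (SD, n = 5 each). NR3C1, the glucocorticoid receptor, averaged 5.54 ± 0.27, 5.98 ± 0.36 and 5.56 ± 0.37 in SKBR3, C5.2 and HB4a with vehicle. NR3C2, the mineralocorticoid receptor, was under the median on all C5.2 and HB4a vehicle arrays and averaged 2.64 ± 0.42 in SKBR3.

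Of 14 genes listed as induced by corticoids, 13 had a value. In vehicle, 1 was higher and 6 lower of 8 tested in SKBR3 against HB4a (median difference -2.04, against -0.023 over all genes tested, of which 77.3% were called). Against C5.2, 1 was higher and 9 lower of 11 (median -2.54, against -0.092, with 78.8% called), and C5.2 exceeded HB4a in 6 of 11 with 0 lower (median 0.75, against 0.097, with 49.2% called). KLF9, ZBTB16 and CRISPLD2 passed the filter within C5.2 alone, so they entered both C5.2 comparisons through C5.2, where they were higher. MAOA and ANGPTL4 were under the filter in SKBR3 and entered its comparisons through the other line. The filter therefore partly set these counts and medians. The largest SKBR3 minus HB4a differences were for MAOA, a monoamine oxidase at background on all 5 SKBR3 arrays and lower by at least 5.04 (adjusted p = 3.08e-24), the phosphatase DUSP1 (-4.66 ± 0.33, adjusted p = 1.51e-15) and ANGPTL4, a lipoprotein lipase inhibitor (-3.85 ± 0.15, adjusted p = 5.33e-24). GLUL, glutamine synthetase, was the gene that was higher in SKBR3 (1.39 ± 0.09, adjusted p = 4.02e-17). The SKBR3 medium lacked the hydrocortisone that the other media contained, and line and medium cannot be told apart.

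Among these genes ERRFI1, an inhibitor of the EGF receptor, fell with doxorubicin in HB4a (-0.93 ± 0.13, adjusted p = 6.05e-05) and rose there by 1.26 ± 0.13 with rapamycin (adjusted p = 3.76e-06). In HB4a doxorubicin raised 1 and lowered 3 of 8 (median -0.36, against 0.065 over all genes, of which 11.4% were called), FKBP5 (-0.66 ± 0.20, adjusted p = 0.0374) and CEBPD (-0.49 ± 0.16, adjusted p = 0.0462) being the other 2 that fell and GLUL rising (0.34 ± 0.10, adjusted p = 0.0292). Rapamycin raised ERRFI1 alone of 8 in HB4a (3.18% of all genes called). In C5.2 rapamycin raised ERRFI1 (1.16 ± 0.27, adjusted p = 0.00559) and KLF9 (0.76 ± 0.26, adjusted p = 0.0493) of 11 (17.4% called), and doxorubicin lowered CEBPD (-0.46 ± 0.11, adjusted p = 0.0215). In SKBR3, FKBP5, a chaperone of the glucocorticoid receptor, fell with rapamycin (-0.79 ± 0.15, adjusted p = 0.00057), and CEBPD rose with rapamycin (0.80 ± 0.18, adjusted p = 0.00392) and with doxorubicin (0.93 ± 0.18, adjusted p = 0.00994). TSC22D3 rose with rapamycin in SKBR3 (0.29 ± 0.09, adjusted p = 0.0281). With both drugs 1 rose and 1 fell of 6 in SKBR3 (22% of all genes called), 1 and 1 of 11 in C5.2 (21%), and 1 and 2 of 8 in HB4a (17.4%). CEBPD was higher in SKBR3 (1.55 ± 0.18) and lower in C5.2 (-0.82 ± 0.11) and HB4a (-0.56 ± 0.16) than with vehicle (adjusted p = 5.76e-06, 2.64e-05 and 0.0168 in that order). FKBP5 fell in SKBR3 (-0.80 ± 0.15, adjusted p = 0.000582) and HB4a (-0.85 ± 0.20, adjusted p = 0.00509). GLUL rose in HB4a (0.40 ± 0.10, adjusted p = 0.00718) and ANGPTL4 in C5.2 (0.58 ± 0.20, adjusted p = 0.0463).

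The insulin and PI3-kinase pathway around SGK1 was represented by 18 genes, 16 with a value and 13 past the filter in HB4a. The list holds genes that act before SGK1, the related kinase SGK2, and targets of SGK and AKT kinases such as FOXO1 and NDRG1. Its counts therefore do not describe the activation of SGK1 alone. Doxorubicin raised 2 and lowered 3 of 13 in HB4a (median -0.051, against 0.065 over all genes, of which 11.4% were called), and rapamycin raised 3 and lowered 0 (median 0.0036, against 0.013, with 3.18% called). IRS1 and IRS2, adaptors of the insulin receptor, fell with doxorubicin (-0.93 ± 0.16, adjusted p = 0.000645, and -0.43 ± 0.11, adjusted p = 0.0134) and rose with rapamycin (0.61 ± 0.16, adjusted p = 0.0396, and 1.20 ± 0.11, adjusted p = 1.67e-06). FOXO1, a factor inhibited by SGK and AKT kinases, fell with doxorubicin (-0.65 ± 0.20, adjusted p = 0.0388), whereas NDRG2 (0.53 ± 0.17, adjusted p = 0.0431) and the kinase PDPK1 (0.33 ± 0.10, adjusted p = 0.0334) rose with it, and the insulin receptor INSR rose with rapamycin (0.71 ± 0.14, adjusted p = 0.00374). In C5.2 rapamycin raised IRS2 (1.28 ± 0.31, adjusted p = 0.00838) and lowered MAPKAP1, an mTORC2 subunit (-0.31 ± 0.09, adjusted p = 0.0196), of 12 (17.4% called). In SKBR3 rapamycin raised FOXO3 (0.57 ± 0.19, adjusted p = 0.0437) and lowered NDRG1, an SGK1 substrate (-0.30 ± 0.10, adjusted p = 0.0324), of 8 (18.3% called). MTOR did not pass the filter.

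Of 14 further sodium pump genes 10 had a value and 3 passed the filter. FXYD3, a small regulatory subunit, rose with doxorubicin in HB4a (1.23 ± 0.21, adjusted p = 0.000697) and C5.2 (0.92 ± 0.21, adjusted p = 0.0201) and with both drugs in HB4a (0.85 ± 0.21, adjusted p = 0.00791). ATP1B3, another beta subunit, fell with rapamycin (-0.42 ± 0.09, adjusted p = 0.00173) and with both drugs (-0.42 ± 0.09, adjusted p = 0.00213) in SKBR3, and with both drugs in C5.2 (-0.35 ± 0.09, adjusted p = 0.0105). With vehicle, FXYD3 was 4.88 ± 0.17 higher in SKBR3 than in C5.2 and 2.66 ± 0.17 higher than in HB4a (adjusted p = 2.22e-25 and 1.18e-16). Of 13 other aquaporins 10 had a value, and none passed the filter in any fit. Their highest value on any array was 4.98, for AQP11.

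The genes most like each listed gene were found by Pearson correlation, as a description over arrays that share experiments and lines. Over all 60 arrays SGK1 was closest to DPYSL2, FOXC2 and DKK1 (r = 0.99 each), AQP3 to OR7E37P, TENT5C and LYPD3 (r = 0.98 each), and SCNN1G to SFI1, PDPN and AOX1 (r = 0.96, 0.95 and 0.95). NEDD4L was closest to CDH3, PTGIS and DMKN (r = 0.97 each), ATP1B1 to GALNT7, RPL22 and SMARCE1 (r = 0.98 each), and SCNN1A to ADD1, ARHGEF18 and TMEM129 (r = 0.97, 0.96 and 0.96). Over the 20 HB4a arrays SGK1 was closest to ERRFI1, CDCA7L and IRS2 (r = 0.98, 0.95 and 0.92), AQP3 to SFN, S100A2 and S100A14 (r = 0.96, 0.95 and 0.94), and SCNN1G to NOP16, STC2 and EIF3B (r = 0.93, 0.92 and 0.92). SFN, a 14-3-3 protein of the p53 response, differed from vehicle in HB4a by 0.54 with doxorubicin, -0.53 with rapamycin and -0.06 with both drugs. NOP16, a ribosome assembly factor, differed by -0.67, -0.44 and -1.28. SFN and NOP16 were chosen for following AQP3 and SCNN1G over these arrays, so that choice fixed the likeness of their differences.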

How the data were processed

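RNA was measured on 60 arrays. The values are log2 summaries that the authors made with RMA, per the submitters' processing notes, with no version. The log base was taken as 2, the values spanning -0.60 to 13.08. In the labels' codes DRC marks the vehicle arrays, whose source names say DMSO, although their treatment text applies DRC to the combination, and DMSO was followed. A dose unit written hM was taken as nM from the source names. Depth has no meaning for arrays, and 5 arrays per group limit the precision. The labels do not say whether experiment numbers mark separate cultures, so p-values measure the spread between these arrays, which may be technical.

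Symbols came from the platform annotation. Of 54675 probe sets 41091 carried 1 symbol and were used, 1801 carried several and 11721 none. The members and lists were chosen with earlier results of these data known, SCNN1G for its values in HB4a with doxorubicin and both drugs, so none of its comparisons that use HB4a arrays was tested. Which values helped to choose the other members is not recorded, so their p-values may be too small.

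Testing used limma 3.58.1 (R 4.3.3, trend, 2-sided) in fits of 20 arrays within a line or 40 for line pairs. Arrays sharing an experiment number counted as pairs if no pair's correlation of deviations from group means was under 0.1, which held for all SKBR3 comparisons within the line and for HB4a and C5.2 except HB4a with both drugs (lowest -0.57) and C5.2 both drugs against vehicle (-0.10). Within pairs the block value stands beside a result where it changed the call. Alternatives were all 60 arrays in 1 fit, the mean of all probe sets, no filter, quantile normalization, the block and each array left out. Another 2 were added after seeing the data, leaving out SKBR3 vehicle array 3 and leaving out the arrays that stood apart. The script was tested on simulated data. Named genes were the members, the 3 most correlated genes per member and up to 3 called genes with the largest differences per list, line and treatment, with MTOR, NR3C1, NR3C2 and ERBB2. Other tools were the R package for tables (version 1.17.8), Python 3.11.15, pandas 2.3.3, numpy 2.4.6 and matplotlib 3.10.9.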

Additional observations from a re-analysis of the deposited data

Results flagged for a closer look

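Each of 7 genes was checked in each of 12 groups of 5 arrays. Of these 84 checks, 11 held an array whose gap to the nearest other array was over the Dixon limit, and chance gives about 5% of checks. The genes share the arrays, so the checks are not independent. SGK1 on SKBR3 vehicle array 3 read 3.66 against 1.09 to 1.27 on the other 4, and CDH1 was also above background on that SKBR3 array alone. SGK1 read 8.18 on HB4a doxorubicin array 2 against 7.80 to 7.87 on the others. C5.2 experiment 2 stood apart in SGK1 with both drugs (9.95 against 10.49 to 10.55) and with rapamycin (10.37 against 10.83 to 10.995), and in AQP3 with both drugs (3.93 against 3.55 to 3.65). SKBR3 vehicle array 1 read 10.13 for AQP3 against 10.48 to 10.63 and 7.12 for SCNN1A against 7.81 to 7.99. ATP1B1 read 7.50 on HB4a rapamycin array 1 against 6.76 to 6.88, and 8.87 on SKBR3 rapamycin array 6 against 9.19 to 9.28. NEDD4L read 3.92 on SKBR3 array 6 with both drugs against 4.26 to 4.34, and SCNN1A read 8.75 on C5.2 vehicle array 1 against 9.16 to 9.24.

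The responses that differed between SKBR3 and HB4a in the line by treatment term of limma were AQP3 with doxorubicin (-1.50), AQP3 with rapamycin (1.60), NEDD4L with rapamycin (0.74) and SGK1 with rapamycin (-1.49). SGK1 in SKBR3 was at background on 5 of 5 rapamycin and 4 of 5 vehicle arrays.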

How the results depend on the processing

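Counts of called results of listed genes were 2 for doxorubicin, 3 for rapamycin and 1 for both drugs against vehicle, 7 for both drugs against each drug, 14 for lines in vehicle and 4 for responses between lines. With the mean of all probe sets, which gave values for 72 of 111 tested results, they were 1, 2, 0, 2, 10 and 2. With a replicate block they were 6, 5, 6, 13 and 10, leaving out lines in vehicle, which stayed at 14 with a common block. The pairing check failed for HB4a with both drugs and for C5.2 both drugs against vehicle, and where it held the block changed no call within a line, or between C5.2 and HB4a with vehicle, other than those given. With all 60 arrays in 1 fit the count was 5 for rapamycin and 3 for both drugs against vehicle, and for both drugs it was 4 with no filter and 2 with quantile normalization. The fit of all 60 arrays and that with no filter admitted genes under the filter within a line, so their counts cover more results. Without the arrays that stood apart the counts were 4 for doxorubicin, 2 for rapamycin, 2 for both drugs and 15 for lines in vehicle. Leaving out each array in turn gave 2 to 2, 2 to 3, 1 to 2, 5 to 8, 14 to 14 and 3 to 5, in the order above. No called difference changed sign in any setting run. Among uncalled differences, 15 of 454 values under other settings and 73 of 1060 with an array left out changed sign, the largest being 0.20 and 0.12 in the fits reported. The causes were not tested. For genes near the array medians, signal over background limits what can be read.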
